A study of Mus musculus with 8 samples.

Results

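CXC and CX3C chemokines are small secreted proteins, named for the spacing of their first cysteines, that bind G protein-coupled receptors and guide the movement of leukocytes and of other cells. Fibroblasts are a known source of several of them. CXC ligands such as Cxcl1, Cxcl2 and Cxcl5 act on the neutrophil receptor Cxcr2 and are induced through the transcription factor NF-kappaB, Cxcl10 is an interferon-induced ligand of Cxcr3, and Cxcl12 is the ligand shared by Cxcr4 and the atypical receptor Ackr3. Cx3cl1 (fractalkine) and Cxcl16 differ from the rest in that they are made as membrane-anchored proteins and are released by metalloproteinases.

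The genes examined were 8 ligands (Cxcl1, Cxcl2, Cxcl5, Cxcl10, Cxcl12, Cxcl14, Cxcl16 and Cx3cl1) and 2 receptors (Ackr3 and Cxcr4), found by symbol in the annotation that pairs the array's probes with genes. They are 10 of 15967 genes and are read by 13 of 24613 probes, with 3 probes for Cxcl12, 2 for Cxcl14 and 1 for each other gene. RNA came from 3 mouse FlpIn-3T3 fibroblast lines, which carry a site for the recombinase Flp, and hybridised to 8 arrays of the Illumina Mouse Ref-8 type. The control line, with neither Pax6 isoform, was grown in Zeocin and read on 3 arrays, from 2 preparations at passage 13 and 1 at passage 19. The Pax6(5a) line carries an integrated mouse Pax6(5a) cDNA, the isoform of the transcription factor with an altered paired domain. It was grown in hygromycin and read on 3 arrays, from 2 preparations at passage 8 and 1 at passage 13. The Pax6 line carries the canonical mouse Pax6 cDNA, was grown in hygromycin and was read on 2 arrays, at passages 9 and 15. Each insert is represented by 1 cell line, and insert and selection drug change together between the control line and the others, so their effects cannot be told apart. No source used here states if preparations of 1 passage were separate cultures, so p-values measure only the spread between these arrays, which may be technical.

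Between 10083 and 10685 probes per array were detected, at a detection p-value under 0.01, and the number of arrays limits the precision. The probe that names Pax6 was not detected on any array, with a lowest detection p-value of 0.444, so it checks no label. Of 11 fibroblast markers, 9 were detected on all 8 arrays and Sparc on none, with a summed signal of 37030 to 44900 on control arrays, 40720 to 42260 on Pax6(5a) arrays and 36740 to 36850 on Pax6 arrays. Of these, Fn1, Pdgfra and Pdgfrb were called lower in the Pax6 line (log2 differences -1.26, -0.94 and -0.87). The leukocyte marker Ptprc, the macrophage markers Adgre1, Itgam and Tyrobp, 5 of 6 endothelial markers, all 5 epithelial markers and all 4 measured T and B cell markers were not detected on any array. Of 4 measured neuron markers, Tubb3 was detected on all 8 arrays, Snap25 on 4, Syp on 3 and Map2 on none. The endothelial sum was 592.7 to 630.2 on control arrays, 774.9 to 902.4 on Pax6(5a) arrays and 1135 to 1144 on Pax6 arrays, with Cdh5 as its single detected marker (1.66-fold and 2.69-fold higher in the Pax6(5a) and Pax6 lines). The macrophage sum was 674.9 to 781.2, 665.9 to 685.7 and 702.3 to 737.3 in the same order, and of its 2 markers detected on all arrays Lyz2 rose (1.72-fold and 1.95-fold). The other, Cd14, differed by -0.38 and -0.33 in log2 signal and was not called (adjusted p = 0.091 and 0.18). The part of these shifts in the results that follow was not tested. In RNA from whole cultures, fewer cells that make a transcript and less transcript per cell cannot be told apart.

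Few of these genes gave a signal above background in the fibroblasts. Cxcl1, Cx3cl1, Ackr3 and Cxcr4 were detected on at least 1 array, and Cxcl2, Cxcl5, Cxcl10, Cxcl12, Cxcl14 and Cxcl16 on none. A probe that was not detected does not show that its transcript was absent. The share detected on at least 1 array was 40% of the 10 genes and 53.3% of all 15967 genes. Cxcl1 and Ackr3 were detected on all 8 arrays, which is 20% of the 10 genes, against 43.6% of all genes. The lowest detection p-value on any array was 0.594 for Cxcl2 and 0.612 for Cxcl10. For the 3 probes of Cxcl12 it was 0.178, 0.118 and 0.704, and for the 2 probes of Cxcl14, an epithelial and skin chemokine, it was 0.457 and 0.528. Cxcl5 and Cxcl16 came closest to the limit, with lowest values of 0.0102 and 0.0191, both in the Pax6(5a) line. These 2 genes counted as detected when the limit was set at 0.05.

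**Figure D1:**
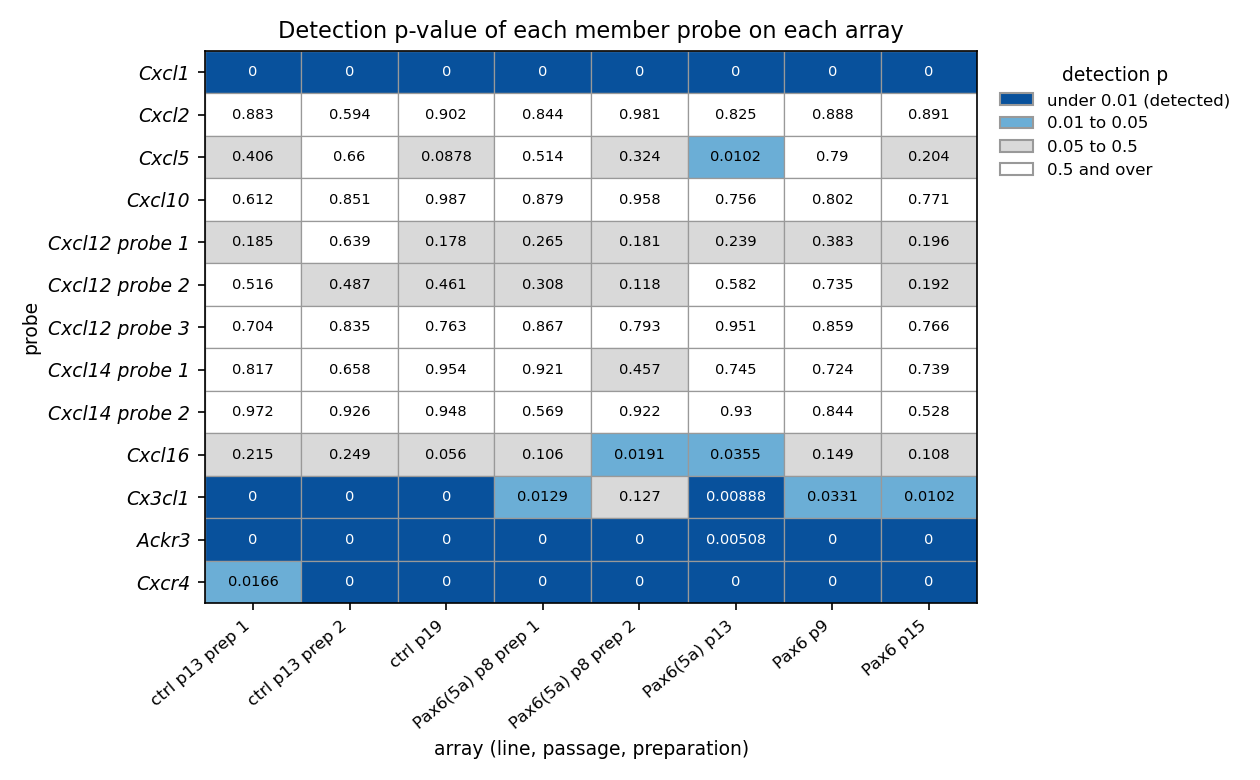
Detection p-value of each of the 13 probes (rows) on each of the 8 arrays (columns), with darker blue for lower values and the p-value written in each cell. Cxcl1 and Ackr3 are detected (p under 0.01) on all 8 arrays, Cxcr4 on 7 and Cx3cl1 on the 3 control arrays and 1 Pax6(5a) array, and the other 9 probes on none.

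The differences between lines were tested with limma over all probes, and a probe was called at an adjusted p under 0.01 together with a fold change of at least 1.5. In the Pax6 line against the control line, 0 of the 13 probes were called, where 2.02% of all probes were called, and 1 had an unadjusted p under 0.05 (17.1% of all probes). In the Pax6(5a) line against the control line, 1 of 13 was called, lower, against 0.967% of all probes, and 3 had an unadjusted p under 0.05 (15% of all probes). Between the Pax6 and Pax6(5a) lines, 0 were called, against 0.569% of all probes, and 2 had an unadjusted p under 0.05 (11.6% of all probes). The median log2 difference of the 13 probes was 0.041, 0.045 and 0.037 in these 3 comparisons, and that of all probes was 0.003, -0.001 and 0.002. The arrays of the 2 lines compared did not overlap for 3 of the 13 probes in each comparison. Over all probes this held for 31.4% in the Pax6 line against the control line, 20.3% in the Pax6(5a) line against the control line and 27.4% between the Pax6 lines. The comparisons with the control line share its 3 arrays.

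**Figure D2:**
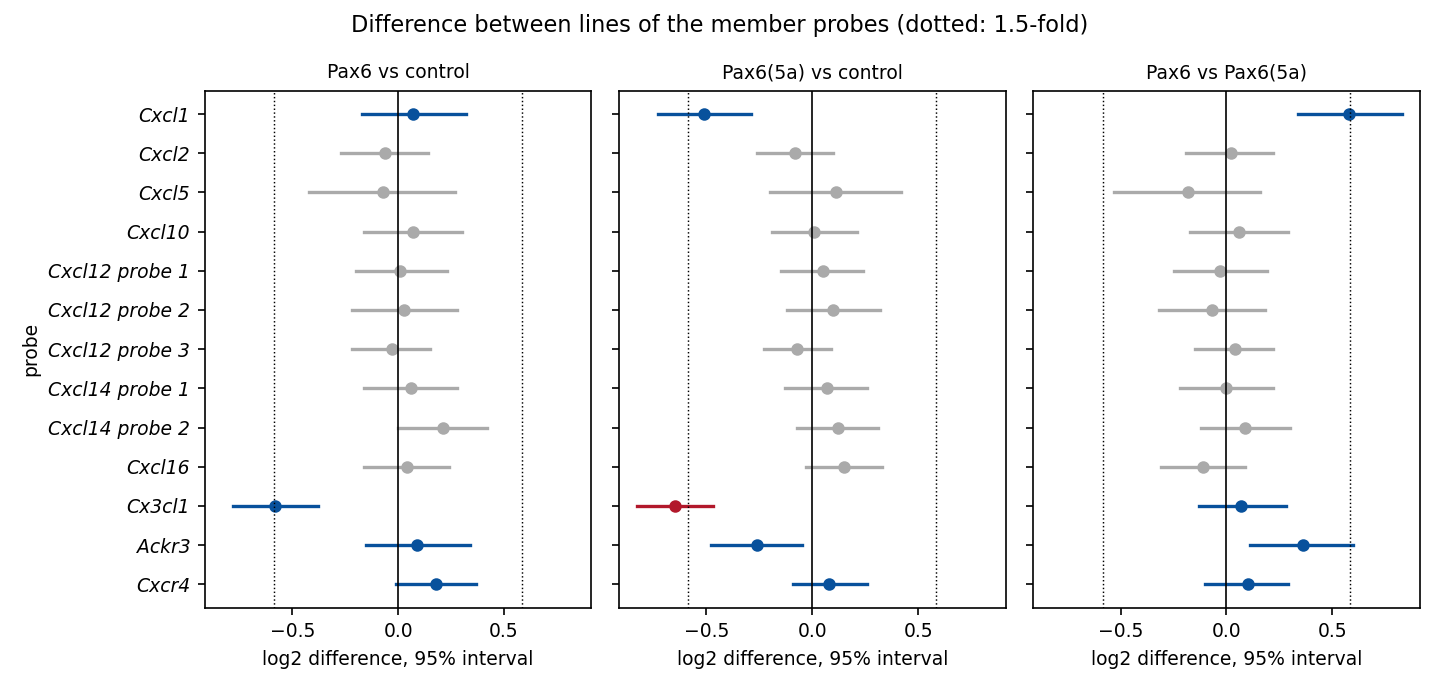
Log2 difference (point) with its 95% interval (line) for each of the 13 probes in the 3 comparisons of lines, with red for a called probe, blue for other probes detected on at least 1 array and grey for probes detected on none. Cx3cl1 in the Pax6(5a) line is the only red point, and the dotted lines mark a 1.5-fold difference.

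Cx3cl1, the membrane-anchored ligand of Cx3cr1, was the only gene of the set that was called. Its normalized signal in the control line was 112 and 114 in the preparations of passage 13 and 120.2 at passage 19. In the Pax6(5a) line it was 76.5 and 66.1 at passage 8 and 78.2 at passage 13, and in the Pax6 line 74.3 at passage 9 and 80.1 at passage 15. All 5 arrays of the lines with an insert thus lay below all 3 control arrays. The probe was detected on all control arrays, on 1 of 3 Pax6(5a) arrays and on 0 of 2 Pax6 arrays, so the arrays bound rather than measure much of the difference. The mean log2 signal was 6.85 in the control line, where the mean detection limit was 6.28. It was 6.20 in the Pax6(5a) line (limit 6.27) and 6.27 in the Pax6 line (limit 6.33).

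Against the control line, Cx3cl1 fell 1.57-fold in the Pax6(5a) line (log2 difference -0.65, SE 0.08, 95% interval -0.83 to -0.47, adjusted p = 0.00075), and 1.49-fold when signals below the limit were raised to it. In the Pax6 line it was 1.49-fold lower (log2 difference -0.58, SE 0.09, 95% interval -0.78 to -0.38, adjusted p = 0.0023), and 1.44-fold with signals raised in the same way. The fitted change in the Pax6 line missed the threshold of size, so it was not called, although 5 of 19 alternatives called it. The values with raised signals are bounds for the means of these arrays and leave out the sampling error that the intervals hold. The 2 lines with an insert differed by 0.07 in log2 signal (95% interval -0.13 to 0.28, adjusted p = 0.86), an interval that spans 0 and rests on signals near the limit. The call in the Pax6(5a) line was lost with passage number as a covariate (1.46-fold, adjusted p = 0.0042), with preparations of 1 passage averaged (1.56-fold, adjusted p = 0.019) and without the second Pax6(5a) preparation of passage 8 (1.49-fold, adjusted p = 0.0048). At passage 13, the only passage that 2 lines shared, Cx3cl1 read 113 on average over 2 control arrays and 78.2 on 1 Pax6(5a) array, a log2 difference of -0.53 with no test.

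**Figure D3:**
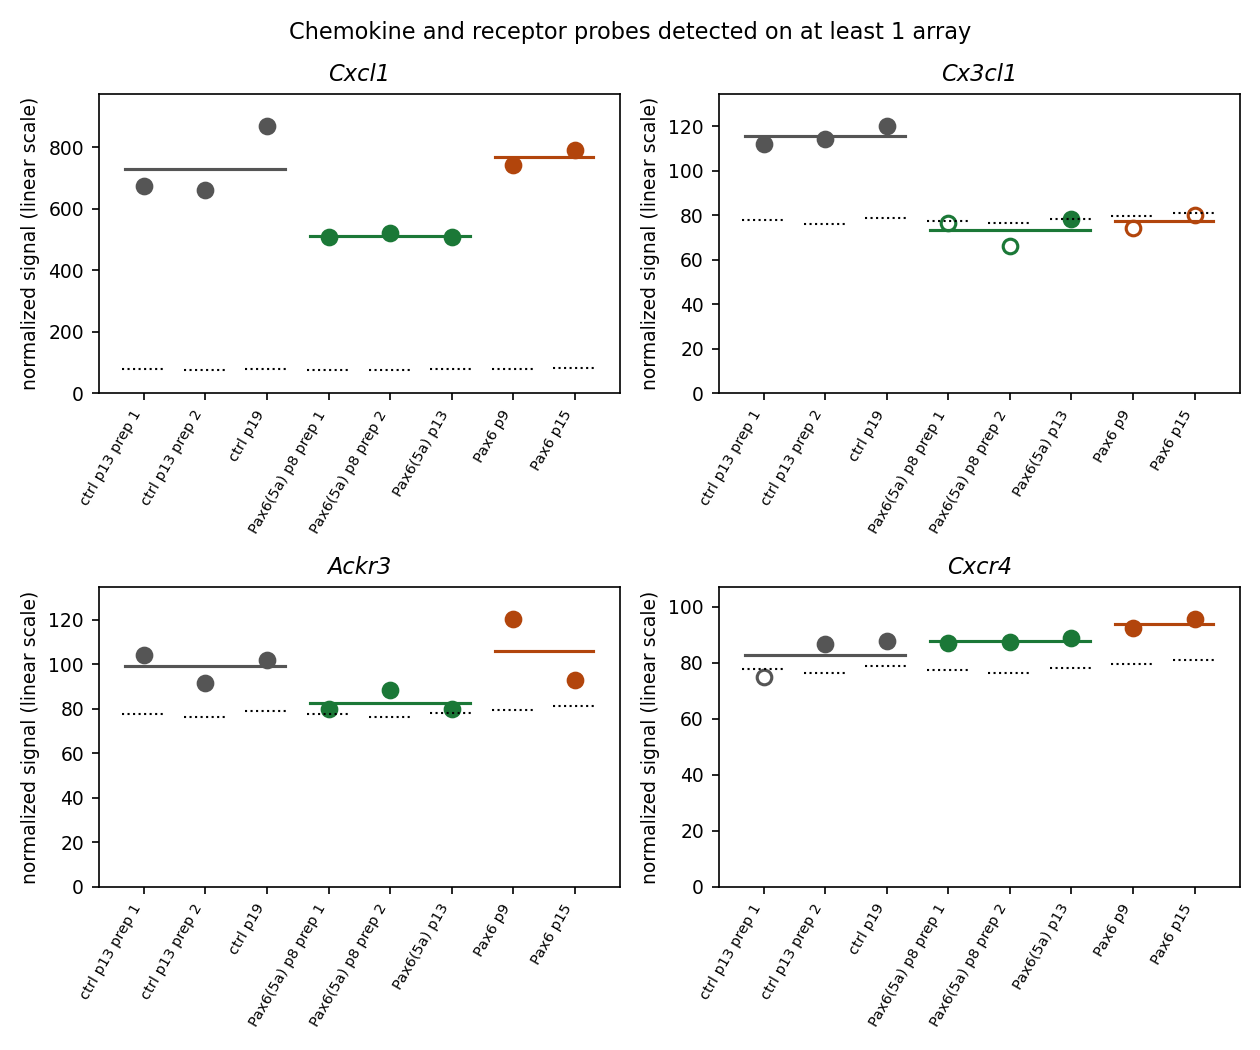
Normalized signal (vertical axis, linear scale from 0) of Cxcl1, Cx3cl1, Ackr3 and Cxcr4 on each array, with filled points for detected probes, open points for probes not detected, a coloured bar for the geometric mean of each line and dotted marks for the lowest detected signal on that array. Cx3cl1 lies at 112 to 120.2 in the control line and at 66.1 to 80.1 in the lines with an insert, around the limit.

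The promoter window of Cx3cl1 is shown because it is the called gene, and those of Cxcl1 and Cxcl2 because these neighbouring neutrophil chemokine genes were read so differently, one on all arrays and the other on none. Windows of 300 bases, from 250 before to 50 after the annotated start, were found in the RefSeq table (GRCm38.p6) for 8 of the 10 genes. They were searched on both strands for the letters GGNNTTTCC, a form of the NF-kappaB site, and TATAAA, a form of the TATA box. Capitals mark every match of either, and no match of one overlapped a match of the other. The windows are chr8:94771930-94772229, chr5:90890995-90891294 and chr5:90903649-90903948 in the order printed, all on the plus strand and written 5′ to 3′.
Cx3cl1: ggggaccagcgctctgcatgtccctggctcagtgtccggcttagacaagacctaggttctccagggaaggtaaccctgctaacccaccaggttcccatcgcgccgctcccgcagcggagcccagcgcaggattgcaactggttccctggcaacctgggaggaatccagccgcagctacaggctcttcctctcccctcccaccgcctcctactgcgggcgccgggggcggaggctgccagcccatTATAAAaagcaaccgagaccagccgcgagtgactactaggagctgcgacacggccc
Cxcl1: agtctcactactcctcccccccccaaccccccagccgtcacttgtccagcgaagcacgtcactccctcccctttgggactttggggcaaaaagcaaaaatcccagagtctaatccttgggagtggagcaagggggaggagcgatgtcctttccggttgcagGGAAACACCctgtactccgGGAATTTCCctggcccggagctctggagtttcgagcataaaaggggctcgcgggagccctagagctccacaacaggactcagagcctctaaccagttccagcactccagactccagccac
Cxcl2: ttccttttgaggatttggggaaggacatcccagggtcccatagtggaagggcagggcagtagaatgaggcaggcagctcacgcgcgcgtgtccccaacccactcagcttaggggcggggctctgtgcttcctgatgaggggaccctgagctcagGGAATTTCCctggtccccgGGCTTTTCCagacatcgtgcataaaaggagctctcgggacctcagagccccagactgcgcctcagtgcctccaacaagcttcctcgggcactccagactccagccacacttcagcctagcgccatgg

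The NF-kappaB letters occurred in 3 of the 8 windows (Cxcl1, Cxcl2 and Cxcl10) and in 5.82% of all 32851 windows, and TATAAA in 3 of the 8 (Cx3cl1, Ackr3 and Cxcr4) and in 13.6% of all. Cxcl1 and Cxcl2 both held the run GGAATTTCC. A match is a description of letters and not a site shown to be used in these cells.

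Cxcl1, a neutrophil chemokine that fibroblasts release on inflammatory stimulation, was well above background on every array. Its normalized signal in the control line was 674 and 661 at passage 13 and 871 at passage 19. In the Pax6(5a) line it was 508 and 520.1 at passage 8 and 508 at passage 13, and in the Pax6 line 744 at passage 9 and 792 at passage 15. The Pax6(5a) arrays lay below all the others, while the Pax6 arrays fell within the range of the control line.

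Against the control line, Cxcl1 in the Pax6(5a) line was 1.42-fold lower (log2 difference -0.51, SE 0.10, 95% interval -0.73 to -0.29, adjusted p = 0.013), which passed neither the p nor the size that a call needs. The Pax6 line differed from the control line by 0.07 (95% interval -0.17 to 0.32, adjusted p = 0.84). It was 1.5-fold higher than the Pax6(5a) line (log2 difference 0.58, SE 0.11, 95% interval 0.34 to 0.83, adjusted p = 0.02), which was not called. Within the control line, the array of passage 19 stood 0.38 above the mean of passage 13 on the log2 scale. The later array differed from the earlier ones by -0.02 in the Pax6(5a) line and by 0.09 in the Pax6 line. At passage 13, the mean of the 2 control arrays was 667 and the Pax6(5a) array read 508, a log2 difference of -0.39 with no test.

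The 6 ligands that no array detected had signals at the level of background, and their differences describe that level. Cxcl2, a relative of Cxcl1, had normalized signals of 46.4 to 53.1 on control arrays, 42.1 to 48.4 on Pax6(5a) arrays and 46.4 to 47.1 on Pax6 arrays. Cxcl10 lay at 41.1 to 52.7, 44.3 to 49.8 and 48.9 to 49.3 in the same order. Cxcl5, which also acts on neutrophils, ranged from 51.8 to 68.1 in the control line and from 49.2 to 62.8 in the Pax6 line. In the Pax6(5a) line it ranged from 54.7 to 78.2, and its highest value came from passage 13. Cxcl16, the membrane-anchored ligand of Cxcr6, lay at 60.8 to 71.0 on control arrays, 67.0 to 75.3 on Pax6(5a) arrays and 65.3 to 67.7 on Pax6 arrays. The lines overlapped for all 4 genes.

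Cxcl12, a chemokine for which stromal cells are a known source, was read by 3 probes, and on no array did any of them reach the limit. Their signals lay at 52.3 to 63.9, 50.4 to 67.0 and 44.3 to 51.1 over all arrays. The largest difference of a Cxcl12 probe from the control line was 0.10, in the Pax6(5a) line (95% interval -0.12 to 0.32, adjusted p = 0.76). The 2 probes of Cxcl14 lay at 44.2 to 56.1 and 43.2 to 55.0. The second was 47.9 and 55.0 in the Pax6 line and 43.2 to 45.2 in the control line, with no overlap, but both lines lay under the limit and the difference was not called (adjusted p = 0.30).

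The receptors were read close to the limit. Ackr3, an atypical receptor that takes up Cxcl12 without signalling through G proteins, had signals of 104, 91.7 and 102 in the control line, in the order of the preparations. They were 80.0, 88.4 and 79.8 in the Pax6(5a) line and 120.2 and 93.0 in the Pax6 line. The Pax6(5a) arrays lay below all the others, and the Pax6 arrays overlapped the control range, with 1 above it. Ackr3 in the Pax6(5a) line differed from the control line by -0.26 (SE 0.10, 95% interval -0.48 to -0.05, adjusted p = 0.21) and from the Pax6 line by 0.36, with the Pax6 line higher (SE 0.11, adjusted p = 0.17), and neither was called. The Pax6 line differed from the control line by 0.09 (adjusted p = 0.79). Its array of passage 15 was 0.37 lower on the log2 scale than that of passage 9, a gap as wide as its difference from the Pax6(5a) line.

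Cxcr4, the signalling receptor of Cxcl12, had signals of 74.7, 86.7 and 87.8 in the control line, 87.0, 87.5 and 88.7 in the Pax6(5a) line and 92.2 and 95.6 in the Pax6 line. It was detected on every array but the first control preparation of passage 13, where the detection p-value was 0.0166. Both Pax6 arrays lay above all the others. The Pax6 line differed from the control line by 0.18 (95% interval -0.01 to 0.37, adjusted p = 0.34) and from the Pax6(5a) line by 0.10 (adjusted p = 0.77), and the Pax6(5a) line differed from the control line by 0.08 (adjusted p = 0.75). None of these differences was called.

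The rest of the family was mostly below the limit too. Of 8 other CXC ligands, Ppbp, a platelet chemokine that also acts on Cxcr2, was detected on all 8 arrays, Cxcl13, a B cell chemokine, on 1, and Cxcl3, Pf4, Cxcl9, Cxcl11, Cxcl15 and Cxcl17 on none. Ppbp signals were 92.7, 98.5 and 111 in the control line, 112, 122 and 112 in the Pax6(5a) line and 132 and 168 in the Pax6 line, with each line above the one before. In the Pax6 line Ppbp differed from the control line by 0.57 (SE 0.11, adjusted p = 0.0083) and missed the 1.5-fold size, and in the Pax6(5a) line by 0.20 (adjusted p = 0.40). None of the 6 other CXC and CX3C receptors was detected on any array, among them Cxcr2 and Cx3cr1, the receptors of Cxcl1 and of Cx3cl1. Nor was any of the atypical receptors Ackr1, Ackr2, Ackr4 and Ccrl2. Of these 18 genes, limma called 0 in any comparison, and 2, 0 and 1 had an unadjusted p under 0.05 in the Pax6 line, in the Pax6(5a) line and between them (17.1%, 15% and 11.6% of all probes).

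Enzymes that release or trim these ligands did not pass the test either. Of 8 measured, limma called 0 in any comparison, and 2 had an unadjusted p under 0.05 in each line against the control line (17.1% of all probes for Pax6 and 15% for Pax6(5a)). Of the 8, Adam17, Mmp2 and Mmp14 were detected on all arrays. Adam17, a sheddase of Cx3cl1, averaged a signal of 605 in the control line, 629 in the Pax6(5a) line and 601 in the Pax6 line (log2 differences from the control line 0.06 and -0.01). Adam10, which sheds Cx3cl1 and Cxcl16 in unstimulated cells, was not detected on any array, which does not show that its transcript was absent. Mmp2, which cleaves Cxcl12, differed from the control line by -0.32 in the Pax6 line (adjusted p = 0.23) and by -0.39 in the Pax6(5a) line (adjusted p = 0.11). A list of 4 genes, headed other ligands of Cxcr4 and Ackr3, also held Cd74, which is a ligand of neither. Of the 4, 3 were matched to the array, Cd74 among them, and 0 were called. An unadjusted p under 0.05 was found for 1 in each line against the control line, beside the same shares of all probes. Adm, adrenomedullin, which Ackr3 takes up, averaged 92.8 in the control line, 143 in the Pax6(5a) line and 131 in the Pax6 line (log2 differences 0.64 and 0.52, adjusted p = 0.019 and 0.064).

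Among genes of signalling downstream of the receptors, Jak2, Gng2 and Rgs16 rose in the Pax6(5a) line. These were 3 of 28 measured and 33 listed, and 0 fell, where 0.551% of all genes rose and 0.651% fell. Of the 28, 0 were called in the Pax6 line against the control line, where 1.03% of all genes rose and 1.42% fell, and 8 had an unadjusted p under 0.05 (17.1% of all probes). Of the same genes 1 was lower in the Pax6 line against the Pax6(5a) line, where 0.251% of all genes rose and 0.426% fell. Jak2, a cytokine receptor kinase, had signals of 344, 350.3 and 340 in the control line, 575, 580.3 and 595 in the Pax6(5a) line and 349 and 359 in the Pax6 line. It rose 1.69-fold in the Pax6(5a) line (log2 difference 0.76, SE 0.07, adjusted p = 4.7e-05), and the Pax6 line was lower than the Pax6(5a) line by 0.72 on the log2 scale (SE 0.08, adjusted p = 0.00036). Rgs16, which speeds the turn-off of G proteins, had signals of 1266 to 1315 on control arrays and 1921 to 1961 on Pax6(5a) arrays (1.51-fold, adjusted p = 0.00043). In the Pax6 line it read 1849 and 1724 and was not called, as its rise (1.39-fold, adjusted p = 0.0029) missed the size. Gng2, a G protein gamma subunit, rose 1.64-fold in the Pax6(5a) line (adjusted p = 0.0065), with signals of 153 to 216 on control arrays and 283 to 330 on Pax6(5a) arrays. In the Pax6 line Gng2 read 323 and 268 and was not called, as its rise (1.56-fold, adjusted p = 0.014) missed the limit on p. Neither gene was called between the Pax6 lines. Some genes of the list went the other way without a call. Among them, Stat3 differed from the control line by -0.69 in the Pax6 line (adjusted p = 0.012) and by -0.4 in the Pax6(5a) line (adjusted p = 0.12).

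Among genes around NF-kappaB, which induces Cxcl1 and its relatives, the called genes were lower. These include known targets and an inhibitor, and the activity of NF-kappaB was not tested. The list of NF-kappaB regulators, receptors that feed it and known targets had 33 genes, of which 30 were measured. In the Pax6 line 6 fell and 0 rose, in the Pax6(5a) line 2 fell and 0 rose, and in the Pax6 line against the Pax6(5a) line 3 were lower and 0 higher. Over all genes, 1.42%, 0.651% and 0.426% were called lower in these comparisons. An unadjusted p under 0.05 was found for 12, 13 and 8 of the 30 genes (17.1%, 15% and 11.6% of all probes). Of the 30 genes, 21 were detected on all arrays, against 43.6% of all genes. The shares given for all genes and all probes include those not detected, so the list and these shares are not matched for signal. The median log2 difference of the list was -0.15, -0.09 and -0.01, and that of all genes was 0 in each. Some genes of the list went the other way without a call. Among them, Tnfaip3 was higher than in the control line by 0.68 in the Pax6 line (adjusted p = 0.049) and by 0.62 in the Pax6(5a) line (adjusted p = 0.061). Nfkbiz, a nuclear cofactor of NF-kappaB, had signals of 706, 673 and 860 in the control line, 285, 285 and 355 in the Pax6(5a) line and 390.2 and 391 in the Pax6 line. It fell 2.42-fold in the Pax6(5a) line (log2 difference -1.27, adjusted p = 3.1e-05) and 1.90-fold in the Pax6 line (log2 difference -0.93, adjusted p = 5e-04). Il1rap, the accessory chain of the interleukin-1 receptor, fell 1.72-fold in the Pax6 line (adjusted p = 0.00029) and 2.11-fold in the Pax6(5a) line (adjusted p = 1.8e-05). Its signals were 265 to 314 on control arrays, 132 to 144 on Pax6(5a) arrays and 160.2 and 180 on Pax6 arrays. Both genes fell in the 2 lines. Cxcl1 was lower in the Pax6(5a) line without a call and lay within the control range in the Pax6 line. A link between these genes and Cxcl1 was not tested.

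The other 4 falls were called in the Pax6 line. Ccl2 and Ccl7 are CC chemokines that attract monocytes. Ccl7 fell 3.60-fold against the control line (log2 difference -1.85, SE 0.16, adjusted p = 2.1e-05), with signals of 4004 to 4673 on control arrays, 3052 to 4361 on Pax6(5a) arrays and 1002 and 1432 on Pax6 arrays. Ccl2 fell 2.19-fold (log2 difference -1.13, adjusted p = 0.00011), with 413 to 459 on control arrays, 423 to 554 on Pax6(5a) arrays and 176 and 221 on Pax6 arrays. The inhibitor Nfkbie fell 2.02-fold (adjusted p = 0.00011) and the subunit Relb 1.56-fold (adjusted p = 0.0036). Ccl7, Ccl2 and Nfkbie were lower in the Pax6 line also when the Pax6(5a) line was the reference (log2 differences -1.67, -1.30 and -0.68, adjusted p = 0.00019, 0.00015 and 0.0066).

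Of 19 listed genes of the interferon pathway, which induces Cxcl10, 17 were measured. Of these, 1 fell in the Pax6 line and 0 rose (1.42% and 1.03% of all genes), in the Pax6(5a) line 0 were called, with 2 at an unadjusted p under 0.05 (15% of all probes), and between the Pax6 lines 1 was lower and 0 higher (0.426% and 0.251% of all genes). The transcription factor Irf1 fell 1.7-fold in the Pax6 line (log2 difference -0.76, SE 0.12, adjusted p = 0.0018) and was 1.64-fold below the level of the Pax6(5a) line (adjusted p = 0.0088). Its signals were 824, 905 and 655 in the control line, 778, 790 and 721 in the Pax6(5a) line and 480.3 and 448 in the Pax6 line.

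**Figure D4:**
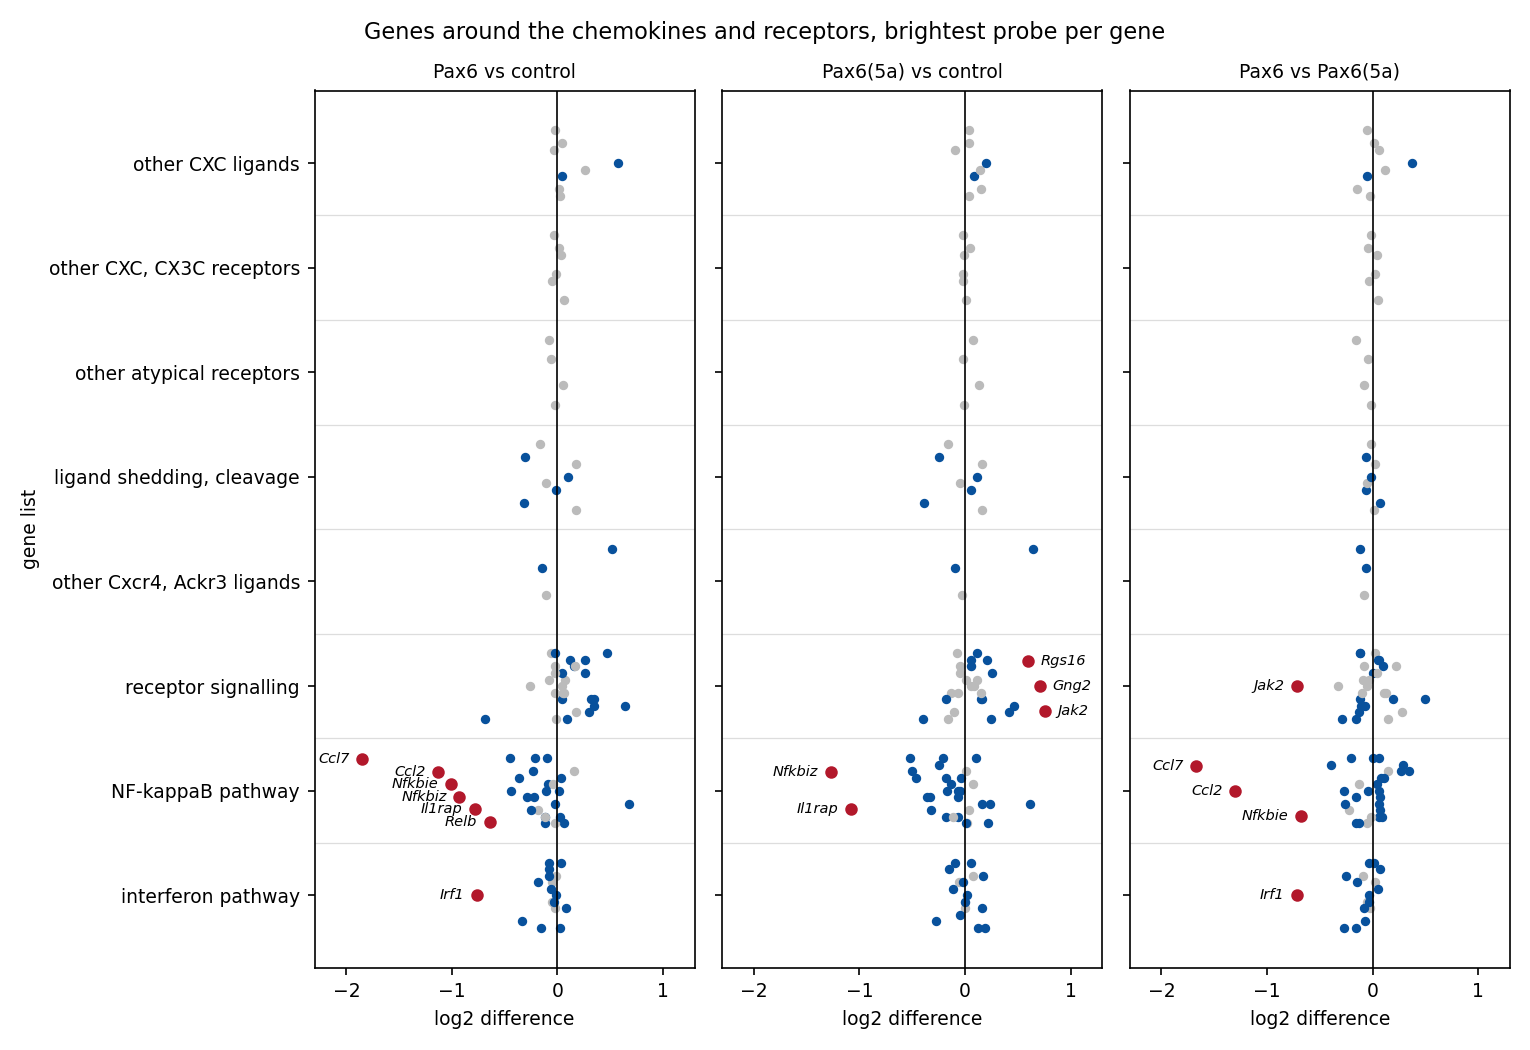
Log2 difference (horizontal axis) of each measured gene, by its brightest probe, in 8 lists of genes around the chemokines (rows) and 3 comparisons of lines (panels), with red for called genes, blue for other genes detected on at least 1 array and grey for genes detected on none. Names mark the called genes, from Ccl7 at -1.85 in the Pax6 line to Jak2 at 0.76 in the Pax6(5a) line.

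For the 3 members with the largest difference in any comparison, the genes with the most similar profile over the 8 arrays were sought among 7643 genes, by the root mean square difference of log2 signals centred on their mean. For Cx3cl1 they were Larp6 (0.079), an RNA-binding protein of collagen mRNAs, Pcolce (0.089), an enhancer of procollagen processing, and Loxl1 (0.098), a crosslinking enzyme of elastic fibres. Pcolce was lower in the Pax6 and Pax6(5a) lines by log2 differences of -0.63 (adjusted p = 0.00067) and -0.62 (adjusted p = 0.00061), and both were called. Larp6 was called in the Pax6 line, and Loxl1 in neither. For Cxcl1 they were Ccnd2 (0.097), Coa8 (0.097) and Mark3 (0.098), and for Ackr3 Lancl2 (0.059), Tnfaip2 (0.059) and Siva1 (0.074), and none of these 6 was called against the control line. These 9 genes were chosen by their likeness on the same arrays, so their differences are a description.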

How the data were processed

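RNA of 3 FlpIn-3T3 lines was read on 8 Illumina Mouse Ref-8 V1.1 arrays. The authors deposited signal intensity values, not normalized and quantile normalized, and a detection p-value for each probe and array as deposited by the authors. Background correction before export is not stated. The intensities were quantile normalized again, which gave the authors' values to within 5e-06, and put on the log2 scale without a pseudocount. Lines were compared by a single limma fit (version 3.58.1, R 4.3.3) that held all 8 arrays, with Benjamini-Hochberg adjustment over 24613 probes. The threshold (adjusted p under 0.01, fold at least 1.5) is the looser of the 2 in the study's methods. The fit was tested on simulated data. A list gene stands for its probe with the highest mean signal. Gene symbols come from the platform's annotation. Bounds raise a dim line's signals to the lowest detected signal of each array.

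All probes of the 10 genes, list genes past the threshold in any comparison and the 3 nearest profiles of 3 members are named. So are list genes chosen after their values were seen (Ppbp, Cxcl13, Adam17, Adam10, Mmp2, Mmp14, Adm, Stat3 and Tnfaip3), Cd74 and the undetected genes of the family. The members and lists were chosen with earlier results of these data known. List genes not matched to the array were not analysed here. Alternatives were other background corrections and normalizations, a detection filter, a variance trend, fewer arrays, passage and culture terms, a replicate block and each array left out. Figures were drawn with matplotlib 3.10.9 in Python 3.11.15.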

Additional observations from a re-analysis of the deposited data

How the results depend on the processing

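The Cx3cl1 calls moved with the processing. In the Pax6 line against the control line, 1 probe (Cx3cl1) was called in place of 0 with the neqc background correction (2.03-fold, adjusted p = 0.0089), with normexp (1.53-fold, adjusted p = 0.0086), with median scaling (1.52-fold, adjusted p = 0.0015) and with earlier or later passage as a block (1.51-fold, adjusted p = 0.00035). Leaving out 1 array at a time gave 0 to 1 calls, with 1 when the first control preparation was left out (1.52-fold, adjusted p = 0.0088). In the Pax6(5a) line against the control line, 0 probes were called in place of 1 with passage number as a covariate and with preparations of 1 passage averaged. Leaving out 1 array at a time gave 0 to 1, with 0 without the second Pax6(5a) preparation. The cause was not tested. Over all alternatives the log2 difference of Cx3cl1 ran from -1.02 to -0.52 in the Pax6 line (adjusted p = 0.00035 to 0.032) and from -1.15 to -0.55 in the Pax6(5a) line (adjusted p = 2.3e-05 to 0.019). The lowest p-value in the Pax6(5a) line came from the replicate block described below. Cxcl1 in the Pax6(5a) line ran from -0.58 to -0.35 and was never called. With detection at 0.05, 6 genes were detected in place of 4.

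Of 232 values of the 4 detected genes under the alternatives, 224 kept their side of the threshold, 5 were called anew and 3 lost their call. No called value changed sign, and 3 values that were not called did. With the replicate block, on the 4 arrays whose labels carry a number, Cx3cl1 in the Pax6(5a) line differed from the control line by -0.67 (1.59-fold, adjusted p = 2.3e-05). These arrays hold control preparations of passage 13 and Pax6(5a) preparations of passage 8, so line and passage cannot be told apart in them. That p-value measures only the spread between preparations of 1 passage. The deviations of same-numbered arrays had a correlation of 0.02. The first preparations detected 10481 (control) and 10517 (Pax6(5a)) probes, and the second 10685 and 10645. Whether the number stands for a batch was not tested and cannot be settled on 4 arrays. Signals near the detection limit bound what could be measured. For Cx3cl1 in both lines with an insert they give a lower bound of the difference between the array means, without its sampling error. For the 6 undetected ligands a difference between levels under the limit was not detectable, which does not show that none exists.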
